A study of Mus musculus with 16 samples.

Results

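The linker histone H1 genes of mouse embryonic stem cells were followed in newly made RNA from Mettl14 conditional knockout (CKO) and Control cells. Their 7 members were picked by gene identifier, by a rule that names no measured value, from 54446 mouse identifiers counted in each library. They were the 5 replication-dependent genes Hist1h1a, Hist1h1b, Hist1h1c, Hist1h1d and Hist1h1e and the 2 replacement variants H1f0 and H1fx.

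Linker histones bind where DNA enters and leaves the nucleosome and help to fold the chromatin fibre. The replication-dependent H1 genes lie among the core histone genes of a large cluster, have no introns, are transcribed mainly in S phase, and give mRNAs that end in a stem-loop in place of a poly(A) tail. H1f0 and H1fx lie outside that cluster, are transcribed outside S phase too, and give polyadenylated mRNAs. H1f0 is best known for rising when cells stop dividing or differentiate. METTL14 works with METTL3 in methylating adenosines of messenger RNA, and the study asked how its loss changes transcription.

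All cells were C57BL/6 embryonic stem cells kept in serum with LIF and the inhibitors CHIR99021 and PD0325901, agents that hold such cells in self-renewal. CKO cells had Mettl14 conditionally knocked out and were compared with Control cells. The labels do not say how the deletion was induced, whether a genotype is 1 clone, or which alleles the Control cells carry. Plates received 5-ethynyl uridine (EU), a uridine analogue built into RNA as it is made, at 0.5 mM once 48 h had passed since seeding, and were harvested after 10, 20, 30 or 60 min of labelling. Labelled RNA was then captured by click chemistry and ERCC spike-in RNA was added before library construction. There were 16 libraries, 2 for each genotype at each labelling time. Whether such a pair stems from different cultures is not stated. The p-values therefore reflect library-to-library spread, which may be technical. In bulk RNA, fewer cells making a transcript and less of it per cell cannot be told apart. The labels name the RNA as total in one field and as polyA in another, and name a stranded total RNA library kit. What part this plays in the level of the stem-loop mRNAs against the polyadenylated ones was not tested.

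Libraries held 5109162 to 28502750 mouse counts. The 2 CKO libraries at 30 min stood apart, with 5188643 and 5109162 counts, against at least 11902184 in the others. They also detected 30583 and 31826 identifiers, against at most 26857 elsewhere, and placed 1.67% and 1.63% of their counts on identifiers with no count in Control, a share that reached 0.0139% at most in CKO at the other labelling times. Several results below that rest on them are therefore also given without them. The deposited identifiers could not be paired with other gene symbols here, so the level of Mettl14, stem cell and fibroblast markers, core histones and S phase genes was not analysed. All 7 H1 genes passed the filter on low counts, both with and without the 30 min libraries. They took 52.7 to 93.5 CPM (counts per 1000000 mouse counts) together, 627 to 2617 counts per library outside CKO 30 min and 346 and 394 in the CKO 30 min libraries, so counting error alone was large for the weaker members.

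The promoters of the 2 classes are set out first, with the motif matches found in them. Windows that end 10 bases after the annotated gene start are given on the gene strand from the RefSeq promoter table of build GRCm38.p6, which matched all 7 members by symbol. Capitals mark matches to the AC box AAACACA, an element known from H1 promoters, to the CCAAT box CCAAT, and to a TATA box, searched as TATAAA or TATATA. Matches to TATAAA and TATATA can overlap, and a window shows them as 1 run. The replication-dependent members are Hist1h1a (ENSMUSG00000049539.3, chr13:23763668-23764412, plus strand), Hist1h1b (ENSMUSG00000058773.2, chr13:21779832-21780625, minus strand), Hist1h1c (ENSMUSG00000036181.2, chr13:23738807-23739531, plus strand), Hist1h1d (ENSMUSG00000052565.7, chr13:23555032-23555807, plus strand) and Hist1h1e (ENSMUSG00000051627.3, chr13:23621777-23622558, minus strand).
Hist1h1a, chr13:23763543-23763677: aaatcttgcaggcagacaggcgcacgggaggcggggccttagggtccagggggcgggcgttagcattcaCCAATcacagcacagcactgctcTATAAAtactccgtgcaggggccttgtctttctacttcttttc
Hist1h1b, chr13:21780616-21780750: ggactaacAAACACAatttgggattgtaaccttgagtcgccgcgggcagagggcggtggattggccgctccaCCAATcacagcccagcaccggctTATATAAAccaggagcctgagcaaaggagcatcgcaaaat
Hist1h1c, chr13:23738682-23738816: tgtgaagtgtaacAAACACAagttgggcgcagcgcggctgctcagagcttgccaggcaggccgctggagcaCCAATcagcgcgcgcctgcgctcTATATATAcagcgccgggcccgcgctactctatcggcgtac
Hist1h1d, chr13:23554907-23555041: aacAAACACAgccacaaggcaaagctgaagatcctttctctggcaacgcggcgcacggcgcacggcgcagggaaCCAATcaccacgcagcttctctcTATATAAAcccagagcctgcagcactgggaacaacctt
Hist1h1e, chr13:23622549-23622683: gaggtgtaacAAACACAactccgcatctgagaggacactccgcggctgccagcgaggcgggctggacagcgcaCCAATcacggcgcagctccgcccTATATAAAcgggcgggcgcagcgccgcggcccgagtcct

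The replacement members are H1f0 (ENSMUSG00000096210.2, chr15:79028212-79030504, plus strand) and H1fx (ENSMUSG00000044927.6, chr6:87980421-87981482, minus strand, H1f10 in RefSeq).
H1f0, chr15:79028087-79028221: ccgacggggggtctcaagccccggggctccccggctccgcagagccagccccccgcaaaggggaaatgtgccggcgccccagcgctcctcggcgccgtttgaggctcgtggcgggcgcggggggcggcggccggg
H1fx, chr6:87981473-87981607: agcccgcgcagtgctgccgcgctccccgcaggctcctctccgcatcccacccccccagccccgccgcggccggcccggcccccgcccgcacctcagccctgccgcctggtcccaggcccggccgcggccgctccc

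Over the whole deposited promoter stretch, 250 bases before to 50 after the start, the CCAAT box stood on the gene strand in 5 of 5 replication-dependent members, the copy nearest the start followed by CA, and a TATA box of either spelling also in 5 of 5. The AC box was found in 4 of 5, all but Hist1h1a. None of these letters was found in H1f0 or H1fx on either strand of this stretch, and sequence outside it was not searched. Across 32851 promoters of the same length, 3.57% held AAACACA on the gene strand, 21.1% CCAAT, 4.08% CCAATCA, 8.32% TATAAA and 5.67% TATATA. Read on both strands, the shares were 7.18%, 37.4%, 7.82%, 13.6% and 5.67% in the same order. No share was computed for a TATA box of either spelling. The order AC box, CCAAT box, TATA box on the gene strand occurred in 0.0578% of the 32851 promoters. These were 19 promoters, among them the 4 H1 promoters with an AC box. The CCAAT box nearest the start began 51 to 56 bases before it in the 5 genes, and the AC box 112 to 122 bases before it in the 4. GC content of the windows was 80% in H1f0 and 84.4% in H1fx, against 54.1% to 66.7% in the replication-dependent members. No other RefSeq gene overlapped any member, whereas histone genes lay within 10 kb of each replication-dependent one.

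**Figure D1:**
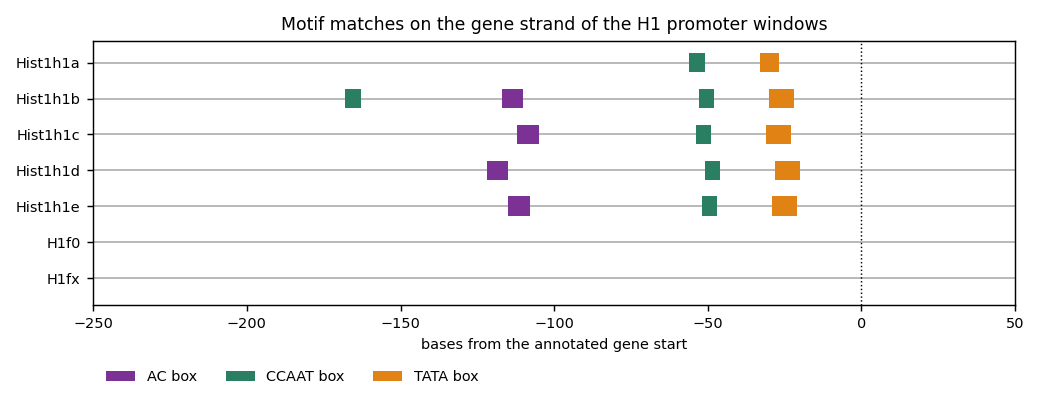
Positions of motif matches on the gene strand of the 7 H1 promoters, in bases from the annotated gene start (dotted line), from 250 bases before to 50 after it. The replication-dependent genes carry a CCAAT box 51 to 56 bases before the start and a TATA box nearer to it, and the rows of H1f0 and H1fx are empty.

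Levels were compared between genes as CPM per kilobase of the RefSeq gene. After 60 min of EU, the longest labelling, Hist1h1c was the highest H1 gene in CKO cells, at 28.4 and 31.9 CPM per kilobase in its 2 libraries, against 18.6 and 24.7 in Control. Hist1h1c encodes one of the most widely expressed somatic H1 proteins. In CKO cells H1f0 followed at 18.3 and 18.4 CPM per kilobase and H1fx at 14.1 and 16.2, with no overlap between these genes. In Control cells H1f0, at 16.1 and 19.1 CPM per kilobase, and H1fx, at 18.9 and 16.8, overlapped each other, and the lower Hist1h1c library lay within their range. The other replication-dependent members were lower than these in both genotypes. Hist1h1d had 5.72 and 5.92 CPM per kilobase in CKO and 4.16 and 5.02 in Control, and Hist1h1e had 3.22 and 3.56 in CKO and 4.93 and 4.58 in Control. Hist1h1b had 3.29 and 3.08 CPM per kilobase in CKO and 3.18 and 3.89 in Control. Hist1h1a was last, with 2.32 and 1.36 in CKO and 2.54 and 2.21 in Control. Hist1h1e overlapped Hist1h1b in CKO and Hist1h1d in Control, so their order was not settled. Reads shared between the similar coding sequences of the clustered H1 genes could shift counts from one to another, depending on how the authors treated them.

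**Figure D2:**
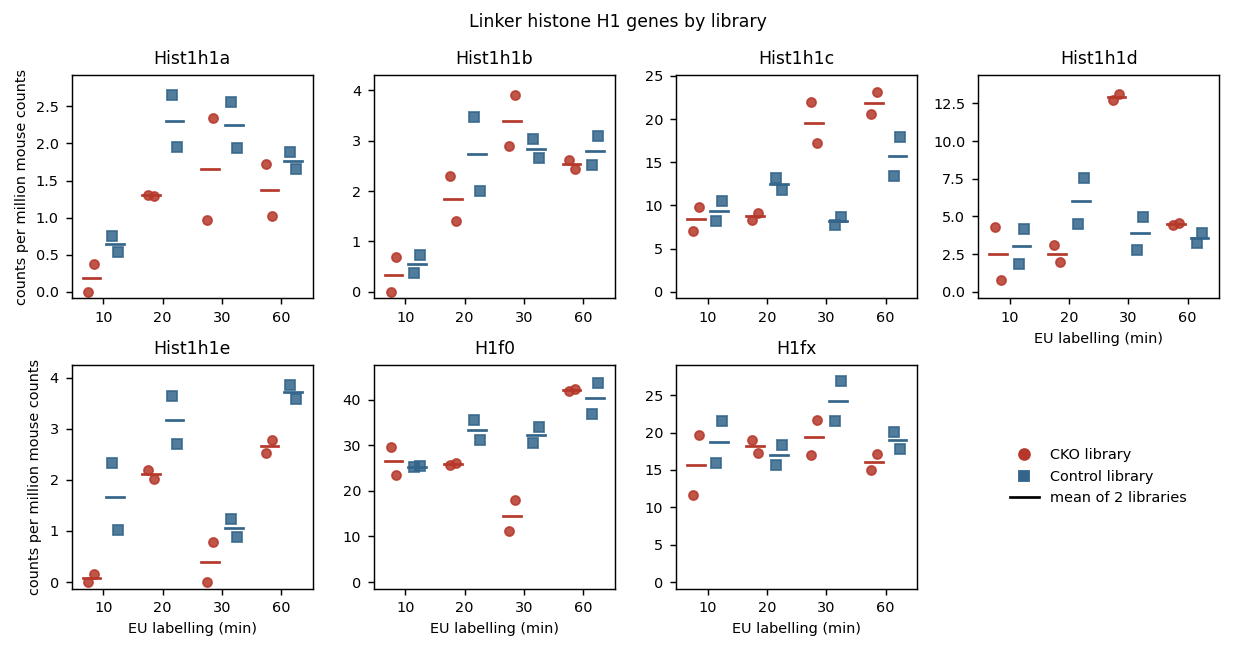
Level of each H1 gene in every library, in CPM, against EU labelling time. Circles are CKO libraries, squares to their right are Control libraries, and bars are means of 2 libraries. H1f0 lies at 11.2 and 18.01 CPM in the CKO 30 min libraries and Hist1h1e lies near 0 in CKO at 10 min.

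The knockout comparison asked whether H1 transcripts took a different share of newly made RNA without Mettl14. No H1 gene passed the test over all EU times (edgeR quasi-likelihood test, Benjamini-Hochberg adjusted over 27488 identifiers, additive model of EU time and genotype), where 11.5% of all identifiers did. At an unadjusted p under 0.05 the count was 1, Hist1h1e, where 29.2% of identifiers passed, and DESeq2 also called 1, again Hist1h1e, where it called 15.8% of identifiers. After TMM scaling (which sets each library against most of its genes), the H1 genes had a median log2 fold change of -0.30. Over all identifiers tested it was 0.19, and over the 9483 with a mean of at least 10 CPM it was 0.004. The 3 members in that set had a median of -0.11. Of the 7 members, 5 had a negative value and 2 a positive one, where 38.9% of all identifiers were negative. Without the 30 min libraries the median of the members was -0.36, against -0.02 over 20204 identifiers, all 7 values were negative, where 51.4% of all identifiers were, and 0 of 7 passed the edgeR test, where 12.6% did.

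Hist1h1e, which encodes a major somatic H1, had the largest log2 fold change in size among the 7 over all EU times and at 10 and 30 min, but not at 20 or 60 min. After 10 min of EU it had 0 and 2 counts in the CKO libraries, against 31 and 15 in the Control libraries. At 20 min it had 42 and 36 in CKO and 67 and 50 in Control. At 30 min it had 0 and 4 in CKO and 16 and 16 in Control, and at 60 min 51 and 74 in CKO and 104 and 102 in Control. In CPM, both CKO libraries lay under both Control libraries at each of the 4 EU times. Among identifiers with a mean of at least 0.5 CPM, 22.8%, 21.6%, 22.4% and 27.4% showed that order at 10, 20, 30 and 60 min. The share with that order at all 4 times was not computed. The count of 0 at 10 min allows up to 0.252 CPM in that library, against 2.33 and 1.01 CPM measured in the Control libraries. The depth-adjusted ratio of the summed counts at 10 min was 0.0489 in CKO over Control (exact 95% interval 0.00576 to 0.187, counting error only). Hist1h1e fell by 4.20 on the log2 scale at 10 min (SE 1.19, edgeR, adjusted p = 0.0202), the only member of 7 to pass there, where 11.8% of identifiers passed, 5.36% in this direction. With each library left out in turn the log2 fold change ranged from -7.80 to -3.32 and the adjusted p of edgeR from 0.000749 to 0.149. It was 0.122 without the first Control 10 min library and 0.149 without the first CKO 10 min library, and 0.218 when only the 4 libraries at 10 min were fitted. Over all EU times its log2 fold change was -1.45 (SE 0.62, edgeR, adjusted p = 0.119), and -1.19 without the 30 min libraries (edgeR adjusted p = 0.113). DESeq2 gave -1.36 over all EU times with an adjusted p of 0.0342.

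The other weakly counted replication-dependent genes, Hist1h1a and Hist1h1b, had 0 and 5 and 0 and 9 counts in CKO at 10 min, against 10 and 8 and 5 and 11 in Control. In CPM at 10 min, Hist1h1a and Hist1h1e, 2 of 7 members, were lower in both CKO libraries than in both Control libraries, where 22.8% of identifiers were, and 0 were higher in both, where 18.1% were. The first CKO 10 min library had no count on Hist1h1a, Hist1h1b or Hist1h1e, and each count of 0 allows 0.252 CPM. Hist1h1d went the other way in that library, with 51 counts (4.28 CPM), against 10 (0.761 CPM) in the second CKO library. Control libraries had 25 and 62 counts of Hist1h1d (1.88 and 4.17 CPM) at 10 min. Its log2 fold change there was -0.21 (SE 0.63, edgeR, adjusted p = 0.99). Hist1h1a had 1.31 and 1.29 CPM in CKO at 20 min, against 2.66 and 1.95 CPM in Control. It had 0.964 and 2.35 CPM in CKO at 30 min, against 2.56 and 1.94 CPM in Control, and 1.73 and 1.02 CPM in CKO at 60 min, against 1.89 and 1.65 CPM in Control. Its CKO and Control libraries were apart at 20 min and overlapped at 30 and 60 min. Its overall log2 fold change was -0.83 (SE 0.56, edgeR, adjusted p = 0.34). For Hist1h1b the overall value was -0.30 (SE 0.48, edgeR, adjusted p = 0.72). Neither gene passed the test at this depth.

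At 20 min of EU 0 of 7 members passed with edgeR, where 0.96% of identifiers did, and 0 at an unadjusted p under 0.05, where 7.02% did. DESeq2 gave an adjusted p for 4 of the 7 and called 0 of them. It called 3.2% of all 27488 identifiers, a share that also counts those without an adjusted p. In CPM, 5 of 7 members were lower in both CKO libraries than in both Control libraries, namely Hist1h1a, Hist1h1c, Hist1h1d, Hist1h1e and H1f0, where 21.6% of identifiers with a mean of at least 0.5 CPM showed that order, and 0 were higher in both, where 22.2% of identifiers were. Hist1h1d had 3.09 and 1.96 CPM in CKO and 4.499 and 7.57 in Control, a log2 fold change of -1.25 (SE 0.61, edgeR, adjusted p = 0.722). Fitted with the 4 libraries of 20 min alone, the same gene passed (log2 fold change -1.25, edgeR adjusted p = 0.0183). Hist1h1c had 8.28 and 9.18 CPM in CKO and 13.2 and 11.7 in Control, a log2 fold change of -0.52 (SE 0.29, edgeR, adjusted p = 0.825).

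At 30 min the comparison rests on the CKO libraries that stood apart, and 48.5% of all identifiers passed in one direction or the other. Of the 7 members, 1 rose and 1 fell, against 29.4% higher and 19.1% lower among all identifiers. H1f0 had 11.2 and 18.01 CPM in CKO and 30.4 and 34.1 CPM in Control. It fell by 1.43 on the log2 scale (SE 0.22, edgeR, adjusted p = 9.54e-06), and by 1.13 to 1.75 with each library left out in turn, passing in all 16 such fits. Hist1h1c had 21.97 and 17.2 CPM in CKO, against 7.68 and 8.63 CPM in Control, and rose by 0.98 on the log2 scale (SE 0.30, edgeR, adjusted p = 0.0111). Its edgeR adjusted p was 0.0616 when the first CKO 30 min library was left out, and 0.0918 and 0.0523 when Control 30 min replicate 1 or 2 was. Hist1h1d had 12.7 and 13.1 CPM in CKO, against 2.79 and 4.98 in Control. Its log2 fold change was 1.44 (SE 0.62, edgeR, adjusted p = 0.0552). The Hist1h1d adjusted p of edgeR was 0.0267 with median-of-ratios size factors and 0.0249 with library totals. It was 0.0715 with ERCC scaling and 0.0574 with no filter on low counts, and DESeq2 gave 0.0172. H1fx had 16.96 and 21.7 CPM in CKO and 21.6 and 26.9 in Control, which overlap (log2 fold change -0.61, SE 0.27, edgeR, adjusted p = 0.0626). In CPM at 30 min, Hist1h1e and H1f0 were lower in both CKO libraries than in both Control libraries and Hist1h1c and Hist1h1d higher, 2 members each way, where 22.4% of identifiers were lower and 45.3% higher. The median log2 fold change over all identifiers at 30 min was 0.61. TMM factors were 1.21 and 1.23 in the CKO 30 min libraries and 0.914 to 1.02 in the others. The part of the low depth and of the wider spread of identifiers of these libraries in the H1 values was not tested.

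At 60 min 0 of 7 members passed with edgeR, where 2.63% of identifiers did, and 0 at an unadjusted p under 0.05, where 9.92% did. DESeq2 gave an adjusted p for 4 of the 7 and called 0 of them. It called 7.17% of all 27488 identifiers, a share that also counts those without an adjusted p. Hist1h1c had 20.6 and 23.2 CPM in CKO, against 13.5 and 17.9 CPM in Control, a log2 fold change of 0.53 (SE 0.28, edgeR, adjusted p = 0.589). In CPM, Hist1h1c and Hist1h1d were higher and Hist1h1e and H1fx lower in both CKO libraries than in both Control libraries, 2 members in each direction, where 20.9% of identifiers were higher and 27.4% lower. H1f0 had 42.0 and 42.3 CPM in CKO and 37.0 and 43.8 in Control, which overlap (log2 fold change 0.11, SE 0.19, edgeR, adjusted p = 1).

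**Figure D3:**
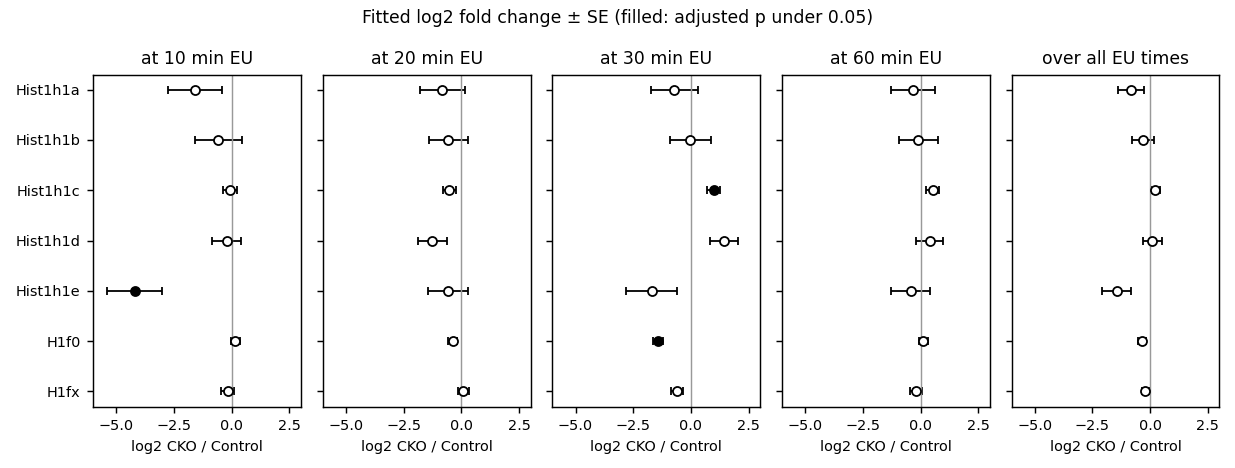
Fitted log2 fold change of CKO over Control with its SE, for each H1 gene at each EU time and over all EU times. Filled points passed the adjusted p threshold: Hist1h1e at 10 min, and Hist1h1c and H1f0 at 30 min.

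The knockout difference varied with EU time for 2 of 7 members, H1f0 (edgeR F-test with 3 degrees of freedom, adjusted p = 0.000486) and Hist1h1c (edgeR, adjusted p = 0.0353), where 22.7% of identifiers passed. Log2 fold changes of Hist1h1c were -0.07, -0.52, 0.98 and 0.53 at 10, 20, 30 and 60 min, and those of H1f0 were 0.15, -0.37, -1.43 and 0.11. With each library left out in turn, H1f0 passed in 16 of 16 fits and Hist1h1c in 6 of 16, with edgeR adjusted p-values up to 0.136. Without the 30 min libraries neither passed, with edgeR adjusted p-values of 0.287 for H1f0 and 0.176 for Hist1h1c, and 0 of 7 members passed, where 5.58% of identifiers did. With ERCC scaling the count was again 2 but the members differed: H1f0 passed, Hist1h1c did not (edgeR adjusted p = 0.127) and H1fx did (edgeR adjusted p = 0.0082).

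The balance between the classes can be read within a library, free of any scaling. The 5 replication-dependent genes made up 21.5% and 21.4% of H1 counts in CKO after 10 min, against 24.7% and 26.6% in Control. At 20 min they made up 27.7% and 26.7% in CKO and 34.9% and 34.4% in Control. At 30 min the shares were 57.8% and 48.5% in CKO and 24.97% and 23.8% in Control, and at 60 min 35.9% and 36.4% in CKO and 30.5% and 32.8% in Control. The share was thus lower in CKO at 10 and 20 min and higher at 30 and 60 min, with no overlap of the libraries at any EU time. Exact 95% intervals, which cover counting error only, overlapped between the genotypes at 10 min (18.4% to 24.96% in the first CKO library and 21.6% to 28.0% in the first Control library) and were apart at 20 and 30 min. At 60 min the intervals of both CKO libraries, 33.7% to 38.1% and 34.5% to 38.3%, overlapped that of the second Control library, 31.0% to 34.7%. The share over the members is a description and was not tested. With Hist1h1c left out of the class and of the total, a recount chosen after seeing the data, the share at 60 min was 16.5% and 15.4% in CKO and 16.8% and 16.5% in Control, no longer higher in CKO. On that recount it was 37.1% and 33.7% in CKO and 15.6% and 14.6% in Control at 30 min. Hist1h1c held most of the counts of its class at 60 min, with 417 of 646 and 615 of 903 in the CKO libraries and 363 of 673 and 511 of 859 in the Control libraries.

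**Figure D4:**
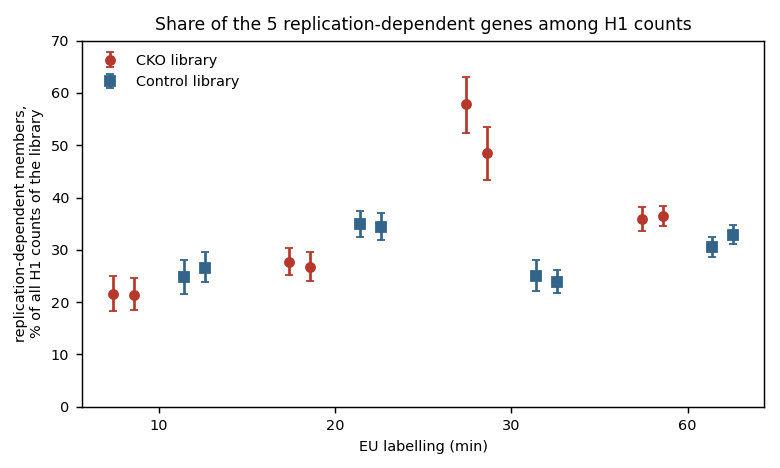
Share of the 5 replication-dependent members among all H1 counts of a library, in percent, with exact 95% binomial intervals, against EU time. CKO circles lie below Control squares at 10 and 20 min and above them at 30 and 60 min, with the CKO 30 min libraries at 57.8% and 48.5%.

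The 60 min libraries were also set against the 10 min libraries within each genotype. Of the 7 members, 4 were higher at 60 than at 10 min in CKO cells (Hist1h1b, Hist1h1c, Hist1h1e and H1f0, edgeR), where 15.2% of identifiers passed and 8.96% rose, and 1 rose in Control cells (H1f0, edgeR), where 10.1% passed and 6.88% rose. None of the 7 fell with edgeR. All 7 log2 changes were positive in both genotypes, with a median of 1.43 in CKO and 0.83 in Control. Over all identifiers the median was 0 in both, and 41.9% were negative in CKO and 43.1% in Control. Without the 30 min libraries all 7 were again positive, where 50.6% of 20204 identifiers were negative in CKO and 53.8% in Control. H1f0 averaged 42.2 ± 0.170 CPM at 60 min and 26.7 ± 4.35 at 10 min in CKO (SD, n = 2), a log2 change of 0.72 (SE 0.19, edgeR, adjusted p = 0.00957). This call held in 14 of 16 fits with 1 library left out, and the H1f0 adjusted p of edgeR was 0.105 without the second CKO 10 min library and 0.0637 without the second CKO 60 min library. In Control it averaged 40.4 ± 4.85 CPM at 60 min and 25.3 ± 0.122 at 10 min (SD, n = 2), a log2 change of 0.76 (SE 0.19, edgeR, adjusted p = 0.00954), with an adjusted p of 0.178 without the second Control 60 min library.

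Hist1h1c averaged 21.9 ± 1.82 CPM at 60 min and 8.44 ± 1.95 at 10 min in CKO (SD, n = 2), a log2 change of 1.43 (SE 0.29, edgeR, adjusted p = 0.000822) that passed in all 16 fits with 1 library left out. In Control it averaged 15.7 ± 3.16 CPM at 60 min and 9.37 ± 1.67 at 10 min (SD, n = 2), with a log2 change of 0.83 (SE 0.29, edgeR, adjusted p = 0.0734), and it passed without the CKO 30 min libraries (log2 change 0.84, edgeR adjusted p = 0.0196). Hist1h1e rose in CKO by 5.00 on the log2 scale (SE 1.19, edgeR, adjusted p = 0.00342), against the 2 counts at 10 min described above, and its log2 change in Control was 1.24 (SE 0.88, edgeR, adjusted p = 0.464). Hist1h1b rose in CKO by 2.88 (SE 0.98, edgeR, adjusted p = 0.0464), and its log2 change in Control was 2.39 (SE 0.93, edgeR, adjusted p = 0.116). The Hist1h1b call in CKO was lost in 11 of 16 fits with 1 library left out, with edgeR adjusted p-values up to 0.319. For H1fx the test found no change, with log2 changes of 0.09 (SE 0.26, edgeR, adjusted p = 0.957) in CKO and 0.10 (SE 0.26, edgeR, adjusted p = 0.949) in Control. Whether the change between 10 and 60 min differed between the genotypes was not tested, and a call in 1 genotype alone does not show a difference.

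Scaled to the spike-in, all 7 H1 genes rose between 10 and 60 min in both genotypes (edgeR with ERCC scaling), where 52.9% of identifiers rose in CKO and 66.5% in Control. The ratio of mouse to ERCC counts carries cell number, recovery and capture yield as well as labelled RNA. H1f0 reached 5365 and 6536 counts per 1000000 ERCC counts in CKO at 60 min, against 4899 and 5742.5 in Control, and stood at 850 and 809 in CKO at 10 min, against 292 and 311 in Control. On this scale Hist1h1c, H1f0 and H1fx were higher in CKO at 10 min, with log2 fold changes of 1.26, 1.46 and 1.16 (edgeR with ERCC scaling, adjusted p = 0.00497, 1.94e-05 and 0.00453), where 43.1% of identifiers were higher. Mouse counts per ERCC count as a whole were 2.64-fold those of Control at 10 min, and the median identifier was 1.14 higher on the log2 scale. Hist1h1e was lower, with a log2 fold change of -2.80 at 10 min (SE 1.15, edgeR with ERCC scaling, adjusted p = 0.0458), where 0.466% of identifiers were lower. At 30 min H1f0 was lower on this scale as well, at 912 and 854 counts per 1000000 ERCC counts in CKO, against 2410 and 2882 in Control (log2 fold change -1.59, edgeR with ERCC scaling, adjusted p = 8.67e-05), where 15% of identifiers were lower.

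**Figure D5:**
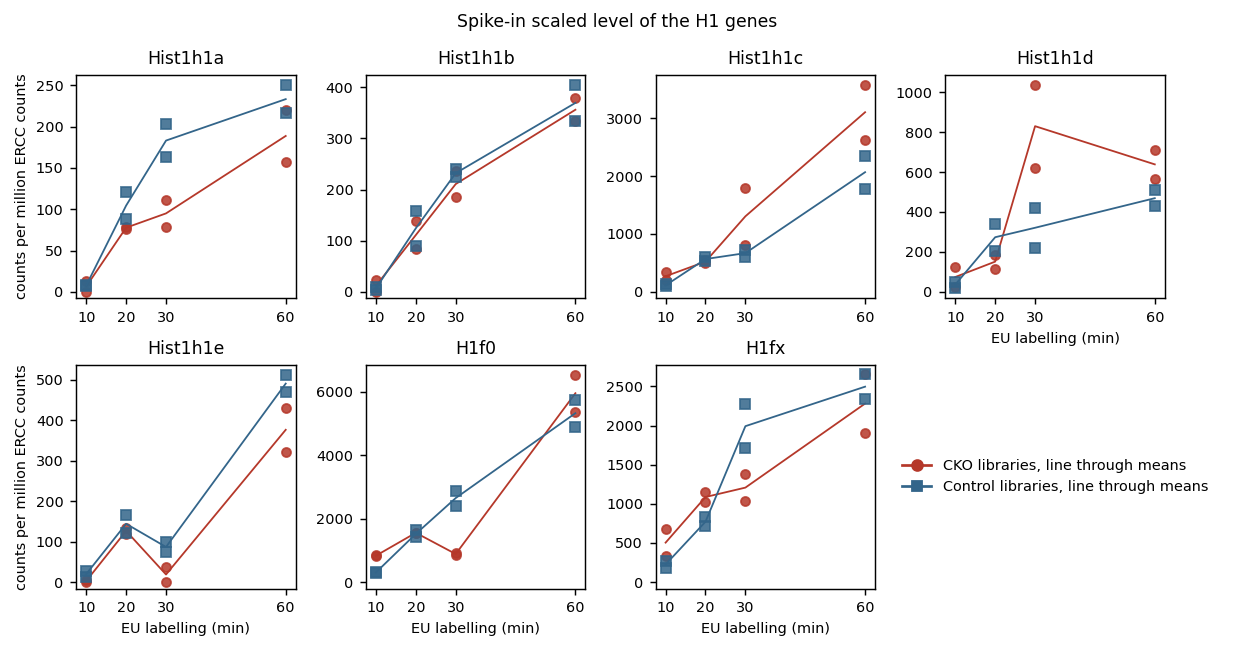
Counts of each H1 gene per 1000000 ERCC counts against EU labelling time, with a line through the means of 2 libraries for CKO (circles) and Control (squares). H1f0 in CKO starts above Control at 10 min, lies at 912 and 854 at 30 min under both Control libraries, and overlaps Control at 60 min.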

How the data were processed

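Newly made RNA of 16 libraries was quantified. The authors deposited raw counts per gene identifier, 54446 mouse identifiers and 92 ERCC species per library, and 0 rows named no gene. The build is mm10 and the tools are HTSeq, HISAT2 2.1.0, Trimmomatic 0.38 and CASAVA, per the submitters' processing notes. The sources used here give no annotation release, strand setting or counted feature. Symbols of the 7 H1 genes came with their definition. The gene table used here matched 0 of the deposited identifiers by Ensembl ID, so the fixed rule for naming similar genes and 15 gene lists could not be applied.

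CPM is a count per 1000000 mouse counts. Tests used edgeR 4.0.16 in R 4.3.3 (quasi-likelihood F-test, robust, TMM, filterByExpr by group, 27488 identifiers kept with 99.9% of mouse counts, Benjamini-Hochberg over them, threshold 0.05). The overall effect came from EU time plus genotype, all others from 8 group means. SE was derived from the F statistic. Alternatives were DESeq2 1.42.0, other scalings (median-of-ratios, library totals, ERCC), a replicate block, 2 other filters for weakly counted identifiers, and subsets of libraries. The procedure was tested on simulated data over 27488 genes. The simulation gave all genes the same spread, no EU time effect and the same knockout change at every EU time. Only genes with a mean of at least 1 CPM were changed. Of genes changed 1 log2 unit, the overall test recovered 97% and the 10 min test 19%. Both shares describe that setting and are not rates for the measured libraries. The 97% does not carry over to the weakly counted H1 genes. Their overall SEs in the measured libraries were 0.56 for Hist1h1a, 0.48 for Hist1h1b and 0.62 for Hist1h1e. Hist1h1e did not pass the overall test at a log2 fold change of -1.45 (edgeR, adjusted p = 0.119). A change of 1 log2 unit in these genes could therefore be missed. In each of the 8 groups the spread between libraries exceeded sampling noise. The members and lists were chosen with earlier results of these data known. Intervals and floors (3 counts) cover counting error only, and the labels name no molecular identifiers.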

Additional observations from a re-analysis of the deposited data

Results flagged for a closer look

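The difference between CKO and Control varied with EU time for 2 of the 7 H1 genes, by a test of the difference itself. Over all 27488 identifiers 22.7% passed that test, so the count does not set the H1 genes apart. For H1f0 the adjusted p was 0.000486 (edgeR), with log2 fold changes of 0.15, -0.37, -1.43 and 0.11 at 10, 20, 30 and 60 min. For Hist1h1c the adjusted p was 0.0353 (edgeR), with log2 fold changes of -0.07, -0.52, 0.98 and 0.53. Without the 2 CKO 30 min libraries the adjusted p-values were 0.261 for H1f0 and 0.172 for Hist1h1c (edgeR). Those libraries had 1.67% and 1.63% of their counts on identifiers absent from every Control library, and what part this plays was not tested.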

How the results depend on the processing

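The number of H1 genes called out of 7 was recomputed under each alternative. Over all identifiers, DESeq2 called 15.8% over all EU times. With ERCC scaling, 43.1% were higher and 0.466% lower at 10 min. On that scale 52.9% rose from 10 to 60 min in CKO and 66.5% in Control. Without the 30 min libraries, 5.58% passed for the variation with EU time. For the other alternatives no such share is given, so their counts do not set H1 genes apart from other identifiers. DESeq2 called 1 over all EU times (0 with edgeR), 4 for the variation with EU time (2 with edgeR) and 3 for 60 against 10 min in Control (1 with edgeR). ERCC scaling called 4 at 10 min (1 with TMM), with Hist1h1c at 1.26 and H1fx at 1.16, both reversed in sign from their TMM values of -0.07 and -0.18, and 7 for 60 against 10 min in CKO (4 with TMM) and 7 in Control. A mean of at least 10 CPM left only Hist1h1c, H1f0 and H1fx in the test, with 0 called at 10 min and 2 for 60 against 10 min in CKO. Libraries of the comparison alone gave 0 at 10 min, 1 at 20 min, 1 at 30 min and 2 for 60 against 10 min in Control. Leaving out the 30 min libraries, or the CKO 30 min ones alone, gave 0 for the variation with EU time, and 2 or 3 for 60 against 10 min in Control. With each library left out in turn, the count was 0 to 0 over all EU times, 0 to 1 at 10 min, 0 to 0 at 20 min, 1 to 5 at 30 min, 0 to 0 at 60 min, 1 to 4 for the variation with EU time, 2 to 5 for 60 against 10 min in CKO and 0 to 3 in Control. The 5 at 30 min and the 4 for the variation came without the second CKO 30 min library. The cause of these shifts was not tested.

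Same-numbered CKO and Control libraries of an EU time did not deviate together, with correlations of their deviations between -0.00249 and 0.0231. This does not show whether the samples were paired by design. With the replicate block 3 members were called at 30 min in place of 2, Hist1h1d being added (edgeR adjusted p = 0.0433), and the 7 other counts were as reported. Of 1387 values of single members under the alternatives, 1293 kept their side of the threshold, 52 newly passed, 40 no longer passed and 2 reversed. A sign change occurred in 48 values where neither fit passed. Counts of 0 to 20 per library for Hist1h1a, Hist1h1b and Hist1h1e in CKO at 10 and 30 min limit what could be detected there.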
